A study of Caenorhabditis elegans with 2 samples.

Results

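In whole Caenorhabditis elegans larvae, 723 of the 2490 thresholded SEM-4 binding peaks lay in clusters, where several summits followed one another within a few kilobases. A peak counted as clustered when at least 2 other summits of the thresholded list lay within 10000 bp on its chromosome. Clustered neighbours up to 10000 bp apart were joined, which gave 209 clusters. The members were therefore chosen by measured values, namely the signal that put a peak on the thresholded list and the positions of the summits, and the number of peaks and the spacing are given as a description. Clustered peaks made up 29.0% of the thresholded list, which was itself 8.30% of the 30000 relaxed peaks called on the pooled reads and held exactly the 2490 of highest signal.

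The data came from ChIP-seq, in which DNA bound by a tagged protein is precipitated and sequenced, against eGFP-tagged SEM-4. The 1 group held 2 samples, labelled as biological replicates 1 and 2, of mixed-sex animals at the L2 larval stage. Both were of strain OP57, with the genotype unc-119(ed3) III; wgIs57, where wgIs57 is an integrated transgene for tagged sem-4, and there was no group without the tag. The labels give no animal age or growth conditions and do not say how much of the sem-4 locus the transgene carries, and they list sem-4, not the tag, as the antibody. Whole animals were used, so the cells that a peak comes from are not known.

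The sem-4 gene encodes a DNA-binding protein with C2H2-type zinc fingers, a nematode relative of Drosophila Spalt and of the vertebrate SALL proteins. Mutants are known for defects in touch receptor and egg-laying HSN neurons, in the mesodermal M lineage and in the rectal Y cell, which normally turns into the PDA neuron. Transcription factors bind short sequences, and many ChIP-seq studies find peaks near transcript starts as well as in introns and between genes, where several binding regions can lie next to each other around 1 gene.

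Sequences under the summits are shown first for the clusters in which a short motif recurred from summit to summit. Each run covers a summit with 50 bp on either side and is written 5′ to 3′ on the plus strand of ce11, read from the RefSeq assembly WBcel235. The first set is the mdl-1 cluster on the X chromosome, with 8 summits in 13438 bp around mdl-1, which encodes a Mad-like basic helix-loop-helix protein, and abts-4, which encodes an anion transporter. Capitals mark CACGTG, the E-box that factors of the Myc, Max and Mad type are known to bind.
mdl-1 summit 1, chrX:6736800-6736900: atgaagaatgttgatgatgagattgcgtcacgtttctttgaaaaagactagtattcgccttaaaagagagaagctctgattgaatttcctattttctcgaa
mdl-1 summit 2, chrX:6737706-6737806: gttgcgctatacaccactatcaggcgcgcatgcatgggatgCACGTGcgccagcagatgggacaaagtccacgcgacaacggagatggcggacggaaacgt
mdl-1 summit 3, chrX:6741737-6741837: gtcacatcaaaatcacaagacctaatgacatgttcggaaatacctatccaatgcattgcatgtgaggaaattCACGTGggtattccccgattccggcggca
mdl-1 summit 4, chrX:6742208-6742308: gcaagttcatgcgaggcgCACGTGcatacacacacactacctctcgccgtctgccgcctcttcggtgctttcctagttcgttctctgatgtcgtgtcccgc
mdl-1 summit 5, chrX:6743111-6743211: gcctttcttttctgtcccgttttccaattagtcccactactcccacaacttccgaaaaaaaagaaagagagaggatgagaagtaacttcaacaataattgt
mdl-1 summit 6, chrX:6743971-6744071: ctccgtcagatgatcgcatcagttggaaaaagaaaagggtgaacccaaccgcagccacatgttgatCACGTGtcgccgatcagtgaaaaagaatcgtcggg
mdl-1 summit 7, chrX:6749444-6749544: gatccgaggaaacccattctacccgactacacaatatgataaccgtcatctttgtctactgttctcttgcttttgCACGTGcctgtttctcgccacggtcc
mdl-1 summit 8, chrX:6750238-6750338: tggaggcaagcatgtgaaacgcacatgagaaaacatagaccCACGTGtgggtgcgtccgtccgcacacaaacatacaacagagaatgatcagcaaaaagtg
The E-box was present at 6 of these 8 summits. In the other clusters of at least 3 peaks it was found at 2 summits at most. Among the 176 clusters of that size, 144 had no summit with it, 28 had 1 and 3 had 2. Over all clustered summits CACGTG was present in 5.95% (exact binomial 95% interval 4.34 to 7.93), against 3.90% (3.05 to 4.92) of the other thresholded summits, 1.98% of the other relaxed summits and 1.67% of genome tiles of the same length. The mdl-1 cluster was singled out after its values were seen, and its 6 summits with the E-box are part of the 5.95%.

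The second set comes from introns of zfp-1, which encodes a zinc-finger chromatin protein related to AF10. Capitals mark TTGTCT or TTGTGT on either strand, a site described for SEM-4.
zfp-1 intron summit at 8794974, chrIII:8794924-8795024: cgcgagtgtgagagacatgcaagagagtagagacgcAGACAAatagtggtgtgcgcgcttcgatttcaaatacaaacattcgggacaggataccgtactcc
zfp-1 intron summit at 8797440, chrIII:8797390-8797490: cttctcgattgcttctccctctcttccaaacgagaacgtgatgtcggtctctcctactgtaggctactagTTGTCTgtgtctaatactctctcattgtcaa
zfp-1 intron summit at 8800250, chrIII:8800200-8800300: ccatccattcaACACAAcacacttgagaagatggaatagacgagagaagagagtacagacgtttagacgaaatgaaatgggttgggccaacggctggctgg
This site was present at 3 of the 7 summits of the zfp-1 cluster, and no cluster held it at more than 3 summits. Of all clustered summits 18.9% (16.2 to 22.0) had it, which was close to the 18.4% (16.7 to 20.3) of the other thresholded summits. The other relaxed summits had it in 14.1% and the genome tiles in 12.6%. Of the 176 clusters with at least 3 peaks, 79 had no summit with the site, 68 had 1 and 26 had 2. At most positions in a cluster the described site was thus missing within 50 bp of the summit.

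The third set holds 5 summits with CTGCGTCT from the clusters named here, again on either strand, with the motif in capitals. The motif was picked after the sequences under clustered summits had been seen.
Y111B2A.12 intron, chrIII:12612607-12612707: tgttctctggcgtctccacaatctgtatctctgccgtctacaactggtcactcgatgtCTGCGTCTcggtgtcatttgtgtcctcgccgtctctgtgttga
upstream of F54F12.1, chrIII:13061254-13061354: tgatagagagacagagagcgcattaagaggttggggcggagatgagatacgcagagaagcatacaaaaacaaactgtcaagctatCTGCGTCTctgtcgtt
upstream of aakg-1, chrIII:12583631-12583731: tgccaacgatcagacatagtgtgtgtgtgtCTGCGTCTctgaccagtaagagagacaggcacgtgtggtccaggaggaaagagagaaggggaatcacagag
zfp-1 intron, chrIII:8802086-8802186: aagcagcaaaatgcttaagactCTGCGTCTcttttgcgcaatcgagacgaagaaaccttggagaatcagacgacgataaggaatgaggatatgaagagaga
upstream of Y39E4B.6, chrIII:13068454-13068554: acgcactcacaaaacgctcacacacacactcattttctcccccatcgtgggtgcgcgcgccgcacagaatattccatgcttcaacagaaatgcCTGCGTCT
CTGCGTCT was present at 9.13% of clustered summits (7.13 to 11.5) and at 11.4% of the other thresholded summits (9.93 to 12.9). The other relaxed summits had it in 1.73% and the genome tiles in 0.521%. It was seen at 3 of the 7 summits of the zfp-1 cluster and at 3 of 6 in the cluster between F54F12.1 and Y39E4B.6, and at none of the summits of the lin-14, mdl-1, sma-9 and egl-5 clusters. The purine repeat GAGAGA was more common, with 31.1% of clustered summits (27.8 to 34.6), 30.6% of the other thresholded summits, 10.6% of the other relaxed summits and 5.18% of the tiles. At the 15 summits of the egl-27 cluster it occurred at 8, at the zfp-1 cluster at 5 of 7 and at the hif-1 cluster at 3 of 3. It occurred at 1 of 9 in the lin-14 cluster and at none of the summits of the egl-5, got-2.2 and epc-1 clusters.

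AT-rich and GATA-type motifs were less frequent at clustered summits than over the genome. ATATT, the AT-rich site of vertebrate SALL4, was present at 13.4% of clustered and 13.4% of other thresholded summits, against 30.6% of the other relaxed summits and 35.0% of the tiles. The egl-5 cluster was unlike the rest, with ATATT at 5 of its 6 summits. TGATAA was present at 5.12% of clustered summits (3.63 to 6.99), 3.90% of the other thresholded summits and 9.35% of the tiles. Base composition moved with these shares, as the median GC content of these windows was 46.5% in both groups of thresholded summits and 35.6% at the other relaxed summits, and its part in the motif shares was not tested. Every motif was searched alone on both strands, so matches of different motifs can overlap.

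No test of clustered against other peaks was made, because the members were chosen from the same peaks and neighbours in a cluster share a locus. Shares are given with exact binomial 95% intervals (Clopper-Pearson), which cover counting error only. Signal is the authors' value per peak, and how it was scaled in each list is not known. It is used to describe and rank peaks within a list, and since the lists hold no read counts the depth behind each peak is unknown.

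Most clusters were small. There were 103 clusters of 3 peaks, 38 of 4 and 35 of at least 5, and the 35 held 226 peaks. The remaining 36 clustered peaks formed 30 clusters of 1 and 3 of 2. In these, some of the summits that qualified a peak did not themselves have 2 others within reach and so were not members. Of the peaks outside clusters, 686 had 1 other summit within 10000 bp and 1081 had none. The number of members follows the distance set by the rule, with 414 clustered peaks at 5000 bp and 1139 at 20000 bp.

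**Figure D1:**
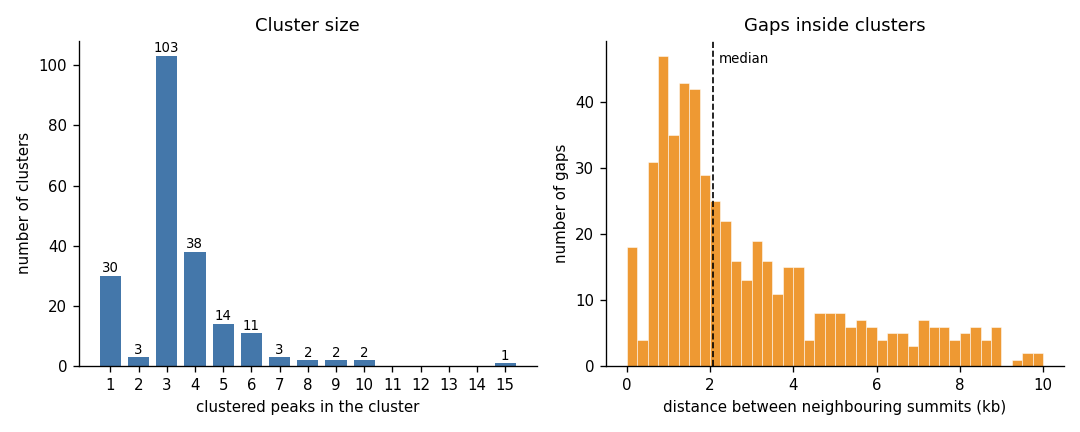
Left, number of clusters (y axis) by the number of clustered peaks they hold (x axis), with the count above each bar. Right, number of gaps (y axis) by distance in kb between neighbouring clustered summits (x axis), with a dashed line at the median of 2066.5 bp.

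Neighbouring clustered peaks mostly had intervals that did not overlap. The median width of clustered peaks was 350 bp, and enrichment between summits was not examined. The 514 gaps between neighbouring clustered summits had a median of 2066.5 bp, with quartiles of 1187 and 3988 bp, and ran from 200 to 9881 bp. At 19 gaps, or 3.70%, the summits were no more than 350 bp apart, and such neighbours could be parts of 1 region. The peak intervals overlapped at 18 gaps, which are not all among these 19. In egl-5 the summits share 1 interval, although not all neighbours there lie within 350 bp. When summits within 350 bp of each other were counted as 1, 689 peaks in 202 clusters were left. Overlapping peaks with summits further apart were still counted separately. Clusters of at least 3 peaks had a median span of 7493 bp from first to last summit, from 1250 bp to 29684 bp.

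Peaks on either side of the rule's edge had similar signal values. The second nearest summit was at most 9957 bp away for clustered peaks and at least 10025 bp away for the others. The 54 clustered peaks whose second nearest summit was more than 9000 bp away had a median signal of 54.5, and the 61 other peaks with one less than 11000 bp away had 59.6.

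Signal, which also selected the thresholded list, is given here as a description. Its median was 60.1 for clustered peaks (quartiles 49.0 and 84.8) and 57.1 for other thresholded peaks (46.7 and 77.6). In clusters of at least 5 peaks it was 65.3. Within clusters of at least 3 peaks the strongest peak had a median of 2.03 times the signal of the weakest. The ratio ran from 1.03 to 38.5, and in 10 clusters it was above 5.

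Clustered summits lay in promoters less often than other thresholded summits, and in introns and far from starts more often. The promoter window, here 1000 bp before to 200 bp after a protein-coding transcript start, held 43.98% of clustered summits (40.3 to 47.7) and 59.9% of the others (57.5 to 62.2), and 30.8% of the other relaxed summits. Introns held 30.0% (26.7 to 33.5) against 17.03% (15.3 to 18.9), and intergenic sequence held 52.6% (48.8 to 56.3) against 68.3% (66.1 to 70.5). These intervals do not overlap, but they take summits as independent, which neighbours in a cluster are not, so they can be too narrow. In each comparison the relaxed summits were on the far side of the clustered ones.

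In the classes with few summits the groups were closer. Exons of non-coding genes held 11.5% of clustered summits (9.25 to 14.03) and 9.56% of the others (8.23 to 11.0), most of them short non-coding RNAs annotated as ncRNA, with 71 clustered summits. Coding exons held 14 clustered summits (1.94%), 5′ UTRs 19 (2.63%) and 3′ UTRs 10 (1.38%). The shares of the other thresholded summits were 1.25%, 3.17% and 0.679%. For each of these 4 classes the interval of the clustered summits overlapped that of the other thresholded summits. Transfer RNA exons held 2 clustered summits (0.277%) and 19 of the 1767 other thresholded summits (1.08%). No clustered summit lay in a microRNA or piRNA exon, where a count of 0 of 723 has an upper bound of 0.509%. Of the other thresholded summits 2 (0.113%) lay in microRNA exons and 1 (0.0566%) in a piRNA exon, so such summits were rare in both groups.

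**Figure D2:**
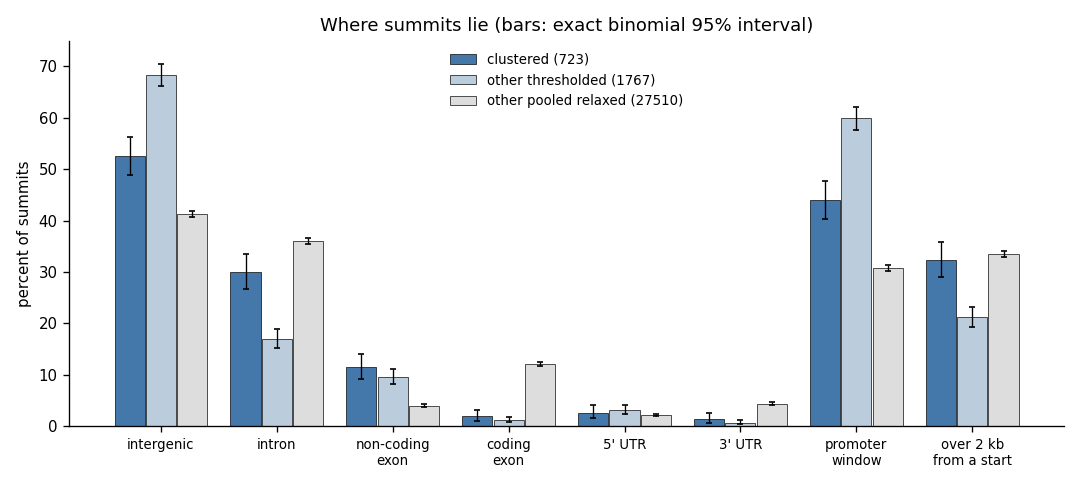
Percent of summits (y axis) in each annotation class, in the promoter window and more than 2 kb from a protein-coding start (x axis), for clustered, other thresholded and other pooled relaxed peaks. Error bars are exact binomial 95% intervals. The clustered peaks lie between the other groups for intergenic sequence, introns and the promoter window.

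Summits of large clusters were further from transcript starts than other clustered summits. More than 2000 bp from any protein-coding start lay 32.4% of clustered summits (29.0 to 35.9) and 21.3% of the others (19.4 to 23.3), and in clusters of at least 5 peaks 46.9% (40.3 to 53.6). The promoter window held 30.5% of the summits of these larger clusters (24.6 to 37.0). The median distance to the nearest start was 987 bp for all clustered summits, 1858 bp in the larger clusters and 456 bp for the other thresholded summits. The side of the start differed as well, with 68.5% of clustered summits (64.9 to 71.8) and 80.2% of the others (78.3 to 82.0) on the upstream side of the nearest start.

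Clustered summits lay in longer genes and longer gaps between genes than the other thresholded summits did. Clustered summits between protein-coding genes lay in gaps with a median length of 4702.5 bp, against 2234 bp for the other thresholded summits and 5499 bp for the other relaxed summits. These medians count a gap once for each summit in it, which gives long gaps more weight. Counted once each, all 17085 gaps had a median of 908 bp, which is not the same measure. Clustered summits inside genes lay in genes of median length 11887 bp, against 7824 bp for the others and 6542 bp for the relaxed summits. Long sequence offers more room for several summits, and the part of length in these values was not tested. Of the 176 clusters with at least 3 peaks, 91 took in both gene bodies and gaps, 39 several gaps, 24 the body of 1 gene, 20 a single gap and 2 several gene bodies. In 29 clusters no summit was in a promoter window, in 57 there was 1 and in 90 at least 2.

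Along the chromosomes the clusters tended towards the middle. On the autosomes 73.96% of clustered summits (70.1 to 77.6) lay in the central 50% of the chromosome by length, against 62.6% (60.0 to 65.1) of the other thresholded and 58.3% of the other relaxed summits. By chromosome, the share of thresholded peaks that were clustered ran from 24.3% on IV (19.98 to 29.1) to 31.0% on X (27.2 to 35.1), and the intervals of all 6 chromosomes overlapped. Per megabase there were 2.76 clusters on III and 2.60 on X, and from 1.67 to 2.12 on the other chromosomes. All thresholded peaks were also densest on these chromosomes, with 33.4 per megabase on III, 30.9 on X and from 17.6 to 26.5 on the others.

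**Figure D3:**
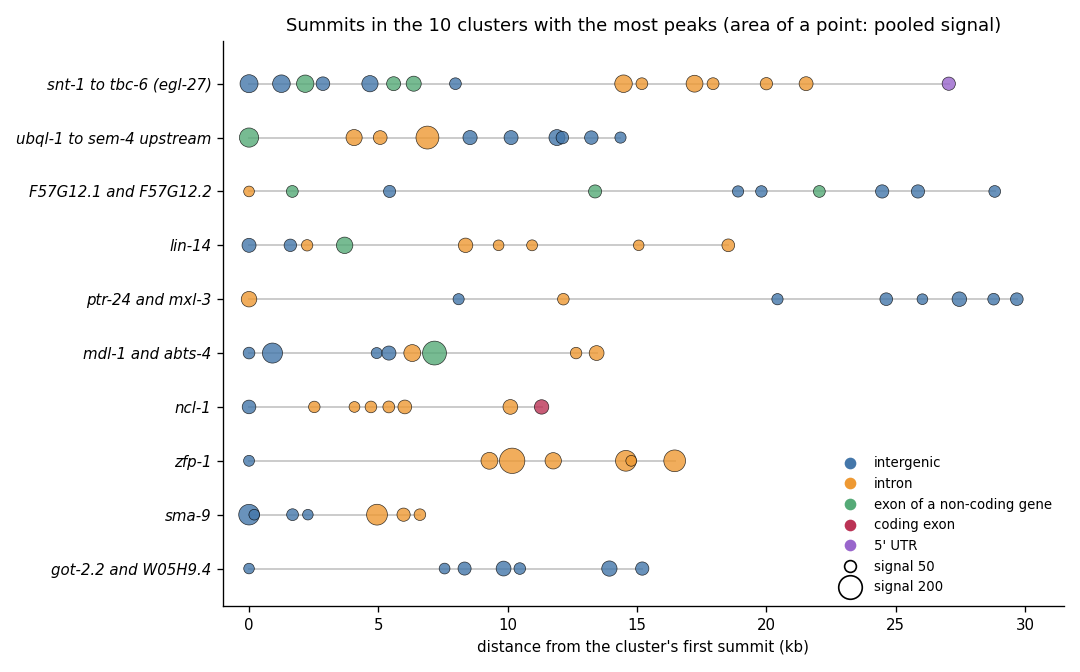
Summits of the 10 clusters with the most peaks by distance in kb from the first summit (x axis), 1 cluster per line and named by genes in or beside it. The area of a point is the pooled signal and its colour the annotation class. In the ncl-1, lin-14 and zfp-1 clusters most points are intronic, while all 7 points of the got-2.2 and W05H9.4 cluster are intergenic.

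The largest cluster held 15 peaks in 27053 bp on chromosome II, from 6821259 downstream of the synaptotagmin gene snt-1 to the start of tbc-6 at 6848312. Its middle gene, egl-27 (6835008 to 6847908, plus strand), encodes a chromatin protein of the MTA type that is needed for the Y-to-PDA change. The first 8 summits lay between snt-1 and egl-27, 3 of them in exons of ncRNA genes, with pooled signals from 49.8 to 117. Another 6 lay in introns of egl-27, with pooled signals from 50.01 to 111. The strongest of these 6, at 6835737, had a pooled signal of 111, with 58.6 in replicate 1 and 55.6 in replicate 2. All 15 summits matched different peaks in each replicate's relaxed list, and 10 ranked in the top 2490 of both. No summit stood out, as the strongest had 2.34 times the signal of the weakest.

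The timing gene lin-14 (X, 11465560 to 11485871, plus strand), whose nuclear protein sets the larval stage of cell divisions and is switched off by the lin-4 microRNA, had 7 clustered summits in its body. With 1 summit in its promoter and 1 further upstream they formed a cluster of 9 peaks, and of these 6 ranked in the top 2490 of both replicates. The strongest summit, at 11467506 in an exon of the ncRNA gene T25C12.7 within lin-14, had a pooled signal of 97.3, with 63.7 in replicate 1 and 28.3 in replicate 2. The promoter summit at 11465407 had 56.2, with 34.0 and 23.9. The intron summit at 11474754, with 42.9, had 35.7 in replicate 1, rank 1273, but 4.69 in replicate 2, rank 17678. Of the 3 summits outside the top 2490 of both, 2 were in the top of replicate 1 alone and 1 in that of replicate 2 alone.

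The gene ncl-1 (III, 7719729 to 7738105, plus strand), which encodes a TRIM-NHL protein known to limit nucleolar size, also had 7 clustered summits in its body. Of these 6 were intronic, with pooled signals from 42.0 to 78.2. The strongest, at 7728614, had 33.3 in replicate 1 and 44.7 in replicate 2. The last summit, at 7729821, lay in a coding exon of ZK112.4, which overlaps ncl-1. It had a pooled signal of 74.8, with 62.8 in replicate 1 and 5.70 in replicate 2, where it ranked 14011. That summit therefore differed most between the replicates within the cluster.

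Higher signals were found in the zfp-1 cluster (III, 8785680 to 8802136), whose intron sequences are shown above. The body of zfp-1 (8791535 to 8806305, plus strand) held 6 summits, all intronic. The strongest, at 8795853, had a pooled signal of 231, with 164 in replicate 1 and 84.6 in replicate 2, ranks 32 and 48. The next had 170.1 at 8802136 and 155 at 8800250, with ranks of 143 and 198 in replicate 1 and 50 and 102 in replicate 2. The weakest summit in the gene, 42.3 at 8800458, ranked 10643 in replicate 1 and 730 in replicate 2, and lay 208 bp from its stronger neighbour.

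In the mdl-1 cluster the strongest summit with the E-box, at 6744021 in an exon of the ncRNA gene R03E9.10, had a pooled signal of 205, with 144 in replicate 1 and 78.3 in replicate 2. The summit at 6737756, upstream and also with the E-box, had 145, with 54.0 in replicate 1 and 88.4 in replicate 2. The promoter summit at 6742258, 93 bp before an mdl-1 start, had 71.8. The summits without the E-box had 49.4 and 103. Signal in this cluster therefore did not separate summits with the E-box from those without it.

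The gene sma-9 (X, 10769282 to 10782973, plus strand), the Schnurri homologue that acts with TGF-beta signalling in body size and in the M lineage, had a cluster of 7 summits. Of these 4 were upstream and 3 intronic. The strongest was the intron summit at 10771229 with a pooled signal of 156, and 105 in replicate 1 and 51.6 in replicate 2. The upstream summit at 10766281 had 153, with 99.4 and 65.3. Its neighbour at 10766484, with 41.4 in the pooled list, matched the same peak of replicate 2, so in that replicate these 2 summits were not separate.

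A cluster of 10 peaks on chromosome I ran from the start of the ubiquilin gene ubql-1 at 7021500 to 7035861, which is 3039 bp before the nearest start of sem-4 itself. Signal was highest in an intron of ubql-1 at 7028397, with a pooled signal of 188.9, and 126 in replicate 1 and 59.6 in replicate 2. The 6 summits between the genes had from 45.4 to 91.7. Every one of the 10 ranked in the top 2490 of replicate 2 and 9 did in replicate 1, although the summits at 7033404 and 7033614 matched 1 peak of replicate 2. This was thus 1 of the most even large clusters between the replicates. The tagged transgene comes from the neighbouring sem-4 locus, and whether its sequence reaches this cluster was not tested.

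Of the 10 clusters with the most peaks, 3 others were on the X chromosome and mostly intergenic. The cluster around F57G12.1 and F57G12.2 had 10 peaks over 28830 bp with pooled signals from 41.2 to 63.4, and its outermost summit was 15959 bp before the nearest start. The cluster from the sirtuin gene sir-2.2 past the patched-related gene ptr-24 to the Max-like gene mxl-3 and beyond had 9 peaks over 29684 bp, from 41.5 to 86.9. The 7 peaks between got-2.2, which encodes an aspartate aminotransferase, and W05H9.4 had from 40.5 to 84.2. The ratio of strongest to weakest was 1.54, 2.09 and 2.08 in these 3 clusters, and their strongest summits were all below 100.

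The posterior Hox gene egl-5 (III, 7814374 to 7817141, plus strand) had the highest signals of all and the smallest gene body among the genes with at least 5 clustered summits. Its 5 summits, or 1.81 per kb of gene, compare with 0.345 per kb in lin-14. The summit at 7816541 in the 3′ UTR had a pooled signal of 1964, with 1450.3 in replicate 1 and 522 in replicate 2, and the intron summit at 7814959 had 221, with 130.01 and 128. The summits at 7815784 and 7816025 matched 1 peak in each replicate, so neither replicate showed 5 separate summits there. Upstream of the gene, at 7812758, the sixth summit of the cluster had 51.05, with 32.1 in replicate 1 and 23.6 in replicate 2. All 5 summits in egl-5 were listed with the same peak interval of 2681 bp, while the intervals of thresholded peaks outside clusters were at most 459 bp. Without the peaks over egl-5 717 clustered peaks were left and the median signal was 59.9.

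In the 3 clusters next after egl-5 by best signal, 1 summit was far above its neighbours. The summit before the ribosomal protein gene rpl-3 (III, 3867586) had 739.6, with 483 in replicate 1 and 276 in replicate 2. Its neighbours before brc-1, the BRCA1 homologue, and acs-19, an acyl-CoA synthetase gene, had 78.6 and 51.4, so the strongest had 14.4 times the signal of the weakest. In the cluster of epc-1, the Enhancer of Polycomb homologue, and Y111B2A.12, the intron summit at 12612657 had 698, with 418 and 293, and the other 3 had from 47.0 to 156. The summit before cdc-48.1 (II, 10563564), which encodes the AAA ATPase p97, had 637, with 434 and 232, while the 5 other summits, around the kinase gene mnk-1 and pro-1, had from 72.5 to 160.1.

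Further clusters were picked by their best signal. The 3 intergenic summits upstream of aakg-1, a gamma subunit gene of the energy sensor AMPK, had 42.8, 303 and 53.0, and the strongest lay 8280 bp from the nearest start. At hif-1, the hypoxia-inducible factor gene, the summit 1981 bp upstream (V, 20778426) had 251 and the summit 19 bp before a start had 99.4. Several summits were high in the cluster between F54F12.1 and Y39E4B.6 (III, 13061304 to 13071790), in which 4 of 6 summits had over 100 and the strongest, 331 at 13062608, lay 7166 bp from the nearest start. The remaining clusters picked by best signal were at puf-9, a Pumilio-family gene, with 343, at serp-1.1 with 299 and before F36A2.7 with 277. The puf-9 summit is a cluster of 1.

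**Figure D4:**
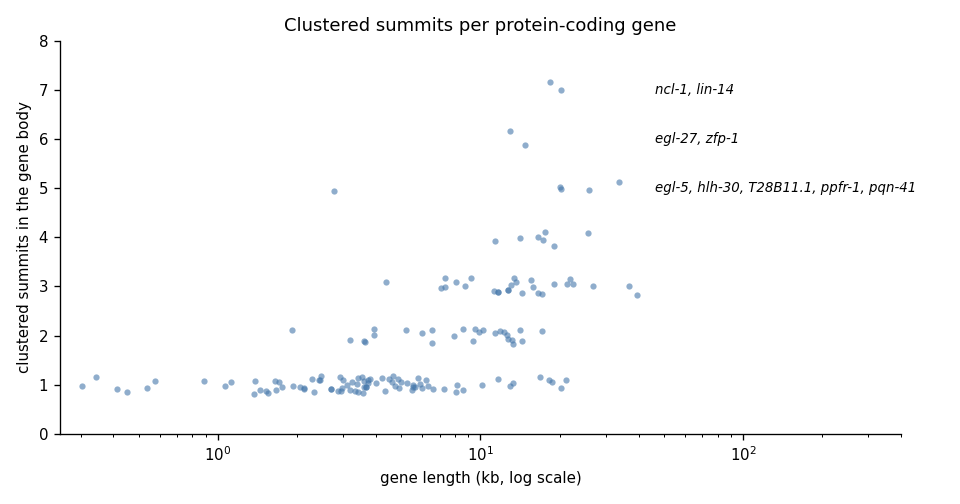
Clustered summits in the gene body (y axis, points shifted slightly up or down so that they can be told apart) by gene length in kb (x axis, log scale), 1 point per protein-coding gene with at least 1. Genes with at least 5 are named at the level of their count in order of length. All but egl-5 are longer than 10 kb.

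Several clusters filled 1 long gene. Of 19865 protein-coding genes, 377 (1.90%) had a clustered summit in the body or promoter window, and 43 had at least 3 in the body. The 43 had a median length of 15513 bp, from 2768 to 39308 bp, against 2032 bp for all protein-coding genes and 3016.5 bp for genes with any thresholded summit. Besides the genes above, T28B11.1, the polyglutamine-rich pqn-41 and ppfr-1, a regulatory subunit gene of protein phosphatase 4, had 5 each. In pqn-41 (III, 1905958 to 1939570, plus strand) the 5 were intronic with pooled signals from 76.9 to 207, and each of the 5 was among the 2490 highest of either replicate. In T28B11.1 (V) they had from 47.8 to 215, and the summit at 10717434 matched no peak of replicate 1. In ppfr-1 they had from 52.7 to 123.

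Of the long genes, hlh-30 and daf-5 encode transcription regulators and were picked after their values were seen. The share of such regulators among the long genes was not counted. The TFEB homologue gene hlh-30 (IV, 4014793 to 4034951, minus strand) also had 5 intronic summits, from 49.3 to 91.5. The Ski/Sno homologue gene daf-5 (II, 14033216 to 14052304, minus strand), which acts in the TGF-beta dauer pathway, had 4. Its strongest, at 14040456, had 138, with 92.0 in replicate 1 and 47.5 in replicate 2. Of the 998 protein-coding genes of at least 10000 bp, 55 had a clustered summit in the body, and of the 43 genes with at least 3 there, 35 were of that length. The 1.90% of all protein-coding genes given above also counts promoter windows, so it is not the matching share for the 55. Genes this long made up 5.02% of all protein-coding genes and 12.5% of those with a thresholded summit.

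The lists of genes with known links to SEM-4 are short, so each share rests on a few genes. Among 2008 protein-coding genes with a thresholded summit in the body or promoter window, 377 (18.8%) had a clustered one, and this share is the background for the lists. Of the 8 SEM-4 genetic targets 1 had a thresholded and a clustered summit, egl-5, and of the 5 Y-to-PDA factors 2 did, egl-5 and egl-27, so that every member with a thresholded summit also had a clustered one in both lists. Of the 6 Hox genes 3 had a thresholded summit and 2 (66.7%) a clustered one, egl-5 and nob-1, whose best had 54.9. Of the 7 HSN regulators 1 had a thresholded summit and none a clustered one. In the M lineage list 4 of 12 had a thresholded summit and 2 (50%) a clustered one, sma-9 and the Exd/Pbx-type homeobox gene ceh-20 with 71.0.

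The developmental and neuronal lists had from none to 2 genes with a clustered summit. Of 11 heterochronic genes 7 had a thresholded summit and 2 (28.6%) a clustered one, lin-14 and the Period homologue gene lin-42. In lin-42 the 3 summits had pooled signals of 43.0, 49.1 and 76.0, and the middle one was at rank 1236 for replicate 1 but 6934 for replicate 2. The 9 members of the NuRD and MEC list include 4 with a thresholded summit, of which egl-27 (25%) had clustered ones. Of 26 Wnt pathway genes the counts were 5 and 1 (20%), the Nemo-like kinase gene lit-1, and of 18 panneuronal and synaptic genes 8 and 1 (12.5%), the active zone gene cla-1 with a best of 63.5. The cla-1 summit at 7619354 ranked 408 in replicate 2 and 19350 in replicate 1. No clustered summit was found for the 13 seam and epidermal regulators, of which 3 had a thresholded one, or the 16 vulval EGF and Notch genes, of which 2 did.

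In the energy and housekeeping lists, AMPK subunit genes had clustered summits in 2 of the 3 members with a thresholded one. In aak-2 (X, 16796087 to 16803398, plus strand), which encodes the catalytic alpha subunit, the 3 intronic summits had 142, 44.4 and 84.1. In aakg-1 a second cluster lay in the introns, with 72.7, 94.0 and 118.7. Ribosomal protein genes had clustered summits in 8 of 53 (15.1%), led by rpl-3, rps-15 with 149.95, rpl-22 with 136 and rps-24 with 87.6, which was near the background. Nuclear hormone receptor genes had 8 of 24 (33.3%), led by nhr-3 with 138, nhr-19 with 136, nhr-1 with 113 and nhr-14 with 112. Histone genes had 1 of 9, his-72, collagen genes 1 of 7, col-185, and ceh homeobox genes 1 of 4, ceh-20.

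The replicates shared clustered peaks to about the same extent as other thresholded peaks. Nearly all, 719 of 723 (99.4%), overlapped a relaxed peak of both replicates, as did 99.4% of the others, which in part follows from how the thresholded list was made. In the top 2490 of both replicates were 61.8% of clustered peaks (58.2 to 65.4) and 59.3% of the others (56.98 to 61.6). In the top of replicate 1 alone were 21.2% of clustered peaks, in that of replicate 2 alone 13.97%, and in neither 3.04%. The other thresholded peaks were close to this, with 21.3%, 15.1% and 4.30%. Of the 176 clusters with at least 3 peaks, 26 had every peak in the top of both replicates, 68 had at least 3 and 8 had none.

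**Figure D5:**
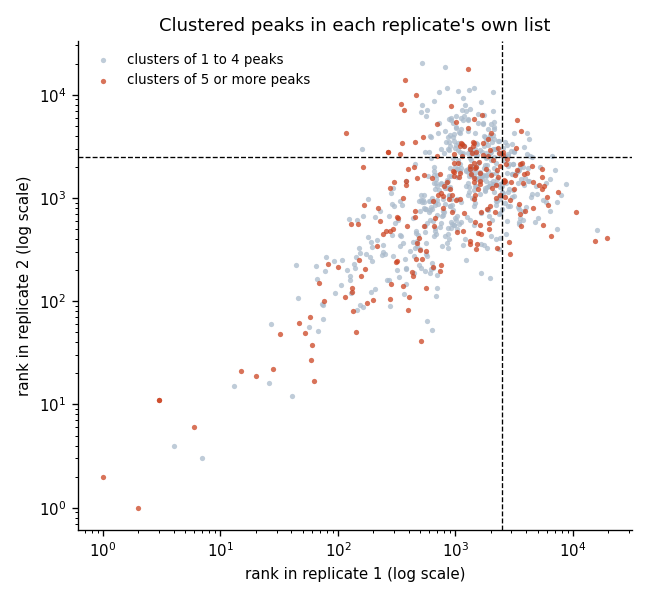
Rank of the matching peak in the list of replicate 1 (x axis, log scale) and of replicate 2 (y axis, log scale) for the 719 clustered peaks found in both. Dashed lines mark rank 2490, and colours separate clusters of at least 5 peaks from smaller ones. Points of both colours spread above or to the right of the lines, where a peak is in the top list of 1 replicate or of neither.

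Clusters were also formed in each replicate's own list. With the same rule, the top 2490 peaks of replicate 1 gave 745 clustered peaks (29.9%) in 215 clusters, and those of replicate 2 gave 711 (28.6%) in 205. The largest had 17 peaks in replicate 1 and 14 in replicate 2. The number of clustered peaks was thus much the same, but the clusters themselves were only in part. Of the clustered peaks of replicate 1, 46.8% (43.2 to 50.5) overlapped a clustered peak of replicate 2, and 48.8% (45.1 to 52.5) did in the other direction. Any top 2490 peak of the other replicate, clustered or not, was overlapped by 65.8% of clustered peaks in replicate 1 and 64.4% in replicate 2. For the other top peaks these shares were 62.1% and 62.3%, and for all top peaks 63.2% and 62.9%. The top lists themselves were thus shared only in part, inside and outside clusters. Of the 176 pooled clusters with at least 3 peaks, 130 held at least 3 clustered top summits of replicate 1, 108 of replicate 2, 84 (47.7%) of both and 22 of neither, counted up to 500 bp beyond the outer summits.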

How the data were processed

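ChIP-seq peak lists of eGFP-tagged SEM-4 in L2 larvae were analysed for 1 group of 2 replicates. Per the deposited text file lists, the authors called relaxed peaks on each replicate and on the pooled reads, each with a control, and derived the thresholded list by the irreproducible discovery rate. The deposited signal of each peak is the authors' value in column 7 of the list. The aligner, the caller and the threshold are not given in the sources used here, and the control was not analysed here. Lists on ce11 were used, with 1-based coordinates, and the ce10 list for counts.

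Summits were clustered by the stated rule and placed with the Ensembl release 115 models of WBcel235, in the order coding exon, 5′ UTR, 3′ UTR, non-coding exon, intron, intergenic. Peaks of different lists were matched by at least 1 bp of overlap, taking the nearest summit. Named are the 10 clusters with the most peaks, the 10 with the highest best signal, the 8 genes with the most clustered summits in the body, and leading list members. Outside these rules, hlh-30 and daf-5 were picked after their values were seen. The members and lists were chosen with earlier results of these data known. The clustering rule and the search for TTGTCT or TTGTGT were checked on simulated data, and the searches for the other motifs were not. Exact binomial intervals used a 95% level. The replicates are labelled biological, and the labels do not describe separate cultures. Python 3.11.15, numpy 2.4.6, pandas 2.3.3, scipy 1.17.1 and matplotlib 3.10.9 were used.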

Additional observations from a re-analysis of the deposited data

How the results depend on the processing

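The rule and the list set how many peaks are clustered. A distance of 5000 bp gave 414 clustered peaks in 134 clusters, of which 35.3% lay in the promoter window. A distance of 20000 bp gave 1139 peaks with 50.7% in the window. With at least 1 other summit there were 1409 peaks, 501 clusters and 50.2% in the window, and with at least 3 there were 320, 90 and 35.6%, with a median signal of 64.7. The 1245 peaks of highest signal gave 181 peaks, 57 clusters, 34.3% in the window, a median signal of 91.1 and 87.3% in the top list of both replicates. In these 5 settings the peaks outside clusters had from 58.2 to 63.7% in the promoter window, above the clustered peaks each time. A promoter window of 500 and 100 bp gave 32.4% and one of 2000 and 500 bp 57.1%. A reciprocal overlap of at least 50% gave 54.5% in the top list of both. The TTGTCT or TTGTGT site was within 25 bp of 7.61% of summits and within 100 bp of 34.2%. Without replicate 1 or without replicate 2 the peaks were the top 2490 of the replicate kept. There were then 711 to 745 clustered peaks, 205 to 215 clusters, 41.3 to 42.3% in the window and 18.1 to 18.4% with the site. Of these clustered peaks 60.9 to 63.8% matched a top 2490 peak of the replicate left out. That is not the same measure as the share of pooled peaks in the top list of both. The median signal was not computed there, as the scale of each list is not known. Counting close summits as 1, leaving out peaks over egl-5, the ce10 list (699 peaks, 198 clusters) and chains of all thresholded peaks (209 clusters) left the results they bear on within their counting error or within 1.5 times. No paired analysis was possible because there is 1 group. The unknown depth, the absence of a group without the tag and the shared loci of neighbouring peaks limit all values.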
